A study of Mus musculus with 28 samples.

Results

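The subunits of the oxidative phosphorylation system were followed in 28 RNA-seq libraries of mouse interfollicular epidermis (IFE), the skin epithelium between hair follicles. Members were the protein-coding genes whose symbols begin with Ndufa, Ndufb, Ndufc, Ndufs, Ndufv, Uqcr, Cox4i, Cox5, Cox6, Cox7, Cox8 or Atp5, with Sdha, Sdhb, Sdhc, Sdhd, Cyc1 and the mitochondrial-encoded mt-Nd, mt-Co, mt-Cytb and mt-Atp genes. Assembly factors named Ndufaf, Ndufa4l2 and hyphenated pseudogenes were left out. The rule uses names only and found 99 of the 55536 gene identifiers, 86 of them nuclear and 13 mitochondrial-encoded.

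All mice were labelled wild type and carried a tamoxifen-inducible Cre recombinase (CreER) with a tdTomato reporter, as Slc1a3CreER, AspmCreER, Dlx1CreER or K14CreER with RosatdTomato. Every group was injected with tamoxifen daily for 5 days, at postnatal days 30 to 34. Harvest followed after 2 weeks, on postnatal day 49, in telogen, the resting phase of the hair cycle. Tail skin gave Slc1a3+ cells and total IFE of that line, Aspm+ cells and their total, and Dlx1+ cells and their total, in 2 libraries each. Back skin gave K14+ cells and their total in 2 libraries each, Slc1a3+ cells and their total in 3 each, and Aspm+ cells and their total in 3 each. The series is described as a comparison of 3 basal lineages, those marked by Slc1a3, by Dlx1 and by Aspm. A reporter labels the cells in which the named gene drove the recombinase and the descendants of those cells, so a labelled group is a lineage 2 weeks on. The labels do not say that libraries came from separate animals, and p-values then measure the spread between these libraries only. No unlabelled or vehicle group was analysed here.

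Oxidative phosphorylation is carried out by 5 complexes in the inner mitochondrial membrane. Complex I takes electrons from NADH, complex II from succinate, complex III passes them to cytochrome c, complex IV passes them to oxygen, and complex V uses the proton gradient that results to make ATP. Complexes I, III, IV and V combine subunits made from nuclear genes with subunits made from the circular mitochondrial DNA, whereas complex II is wholly nuclear. Nuclear subunit genes are transcribed one by one, often from promoters that the factors NRF1, GABP (an ETS-family factor) and YY1 can bind. Mitochondrial genes are transcribed together as long precursors that are cut and adenylated inside the organelle.

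Of the 86 nuclear identifiers, 80 had enough counts to be tested. The 6 others were Cox4i2, Cox6a2, Cox7b2, Cox8b, Cox8c and a second identifier for Atp5o with 0 counts in all libraries. Of the 13 mitochondrial-encoded members 8 were tested and 5 were not, namely mt-Nd4l, mt-Co2, mt-Co3, mt-Atp6 and mt-Atp8. Library totals ran from 7738262 to 37670589 counts. Back Slc1a3 total replicate 4 stood apart: it had the lowest total and the fewest genes with a count, 14436, and its mitochondrial-encoded members summed to 1664 CPM (the counts of a gene scaled to library size) against 9633 to 21741 CPM in the other 27 libraries. It is called the library of few genes, and results that rest on it are given with and without it. Keratin 5 and keratin 14, which mark basal keratinocytes, were abundant everywhere. Krt5 ran from 26862 to 52660 CPM in tail and from 19794 to 34622 CPM in back libraries.

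Of the nuclear member symbols, 69 of 85 matched a RefSeq promoter window of 300 bases (250 before and 50 after the start) on GRCm38.p6. The core of the NRF1 motif, GCGCANGCG, was present on either strand in 28.4% of the 74 windows of members, against 6.25% of 32851 windows of all genes. The ETS-type motif CCGGAAG was present in 21.6% of members' windows, against 8.86% of all, and the YY1-type core AAGATGGCG in 9.46%, against 1.4%. At least 1 of the motifs was found in 48.6% of members' windows, against 14.8% of all windows. None of these motifs contains another, matches may overlap by a few bases, and a match is a description of the letters only. Some members higher in tail skin, such as Ndufa10, Ndufv1, Ndufv3, Cox5b and Atp5b, held none of these motifs in their windows. The 250 bases before the start are shown for 1 member of each complex that was higher in tail skin and held a motif. Matches are in capitals, and the site difference described next took in all 5 complexes.
Ndufs3 (complex I, chr2:90904722-90904971, minus strand, ETS match): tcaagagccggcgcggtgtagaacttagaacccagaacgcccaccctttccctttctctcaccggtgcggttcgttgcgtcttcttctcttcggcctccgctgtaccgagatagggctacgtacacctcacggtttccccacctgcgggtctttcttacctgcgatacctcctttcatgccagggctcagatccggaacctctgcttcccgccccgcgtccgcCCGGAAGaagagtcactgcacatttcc
Sdha (complex II, chr13:74350241-74350490, minus strand, NRF1 matches): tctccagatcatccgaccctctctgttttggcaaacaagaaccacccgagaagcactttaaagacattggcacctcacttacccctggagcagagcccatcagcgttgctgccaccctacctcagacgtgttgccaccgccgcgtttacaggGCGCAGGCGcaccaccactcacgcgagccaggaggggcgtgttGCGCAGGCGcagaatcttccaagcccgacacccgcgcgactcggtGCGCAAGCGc
Uqcr11 (complex III, chr10:80406822-80407071, minus strand, ETS match): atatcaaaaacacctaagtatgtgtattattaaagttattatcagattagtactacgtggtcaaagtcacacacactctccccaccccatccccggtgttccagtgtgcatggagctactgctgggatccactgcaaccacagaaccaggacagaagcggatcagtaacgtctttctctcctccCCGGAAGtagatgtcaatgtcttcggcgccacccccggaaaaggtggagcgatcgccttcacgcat
Cox6b1 (complex IV, chr7:30626115-30626364, minus strand, ETS match on the opposite strand): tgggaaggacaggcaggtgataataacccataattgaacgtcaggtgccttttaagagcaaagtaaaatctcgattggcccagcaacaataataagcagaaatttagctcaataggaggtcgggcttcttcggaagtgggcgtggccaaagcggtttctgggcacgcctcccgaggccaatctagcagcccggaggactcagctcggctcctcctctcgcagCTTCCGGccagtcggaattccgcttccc
Atp5g2 (complex V, chr15:102671048-102671297, minus strand, overlapping NRF1 matches on both strands): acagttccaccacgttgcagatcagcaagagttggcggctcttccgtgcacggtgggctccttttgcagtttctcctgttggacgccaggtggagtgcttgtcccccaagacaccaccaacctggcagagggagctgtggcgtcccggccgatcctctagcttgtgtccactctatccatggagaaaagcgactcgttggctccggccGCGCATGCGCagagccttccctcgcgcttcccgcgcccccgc

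In the Slc1a3 and Aspm lines, the lines held at both sites, nuclear subunit transcripts were higher in tail than in back epidermis. Mitochondrial-encoded transcripts did not follow them. Levels are CPM scaled between libraries by TMM, the trimmed mean of M values. Summed over the 86 nuclear members, tail libraries held 7965 to 16280 CPM (median 11244) and back libraries 6489 to 11258 CPM (median 8869). The ranges of the sites overlapped. Slc1a3 totals had 14934 and 12335 CPM in tail, against 7216, 7457 and 7722 CPM in back. Aspm totals had 10451 and 10402 CPM in tail, against 9172, 8276 and 9550 CPM in back, a smaller gap. The highest values were those of the tail Slc1a3 line, with 16280 and 13869 CPM in Slc1a3+ cells and 14934 and 12335 CPM in their totals. The tail Dlx1 line had 10999 and 8633 CPM in Dlx1+ cells and 10125 and 7965 CPM in their totals, and its replicate 2 libraries held the lowest tail values. In back skin the K14 line was highest, at 11131 and 11231 CPM in K14+ cells and 11258 and 11167 CPM in their totals. Each of these K14 values lay above both tail Aspm totals, 10451 and 10402 CPM, and above every library of the tail Dlx1 line. The K14 and Dlx1 lines each came from a single site and did not enter the site tests below.

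The 13 mitochondrial-encoded members summed to 9797 to 14445 CPM in tail libraries and 9633 to 21741 CPM in back libraries without the library of few genes. The back Aspm line held the widest range. Its Aspm+ cells had 9633, 17421 and 21741 CPM, and its totals 13247, 14253 and 18133 CPM. The ratio of mitochondrial-encoded to nuclear transcripts was 0.707 to 1.73 in tail libraries, against 1.15 to 1.98 in back libraries without the library of few genes and 0.215 in that library. In 10 of 12 tail libraries the ratio lay below the lowest back value of the others, by a narrow margin in Dlx1 total replicate 1, and both replicate 2 libraries of the Dlx1 line lay above it. In bulk samples fewer cells of a type and less RNA per cell cannot be told apart, and sums over members are descriptions with no test. mt-Nd3, mt-Nd4l, mt-Co2, mt-Co3, mt-Atp6 and mt-Atp8 add almost nothing to these sums. As described below, their near-empty counts cannot be read as low expression. The ratio therefore compares counted transcripts and is not the balance of nuclear and mitochondrial transcripts in the cells.

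**Figure D1:**
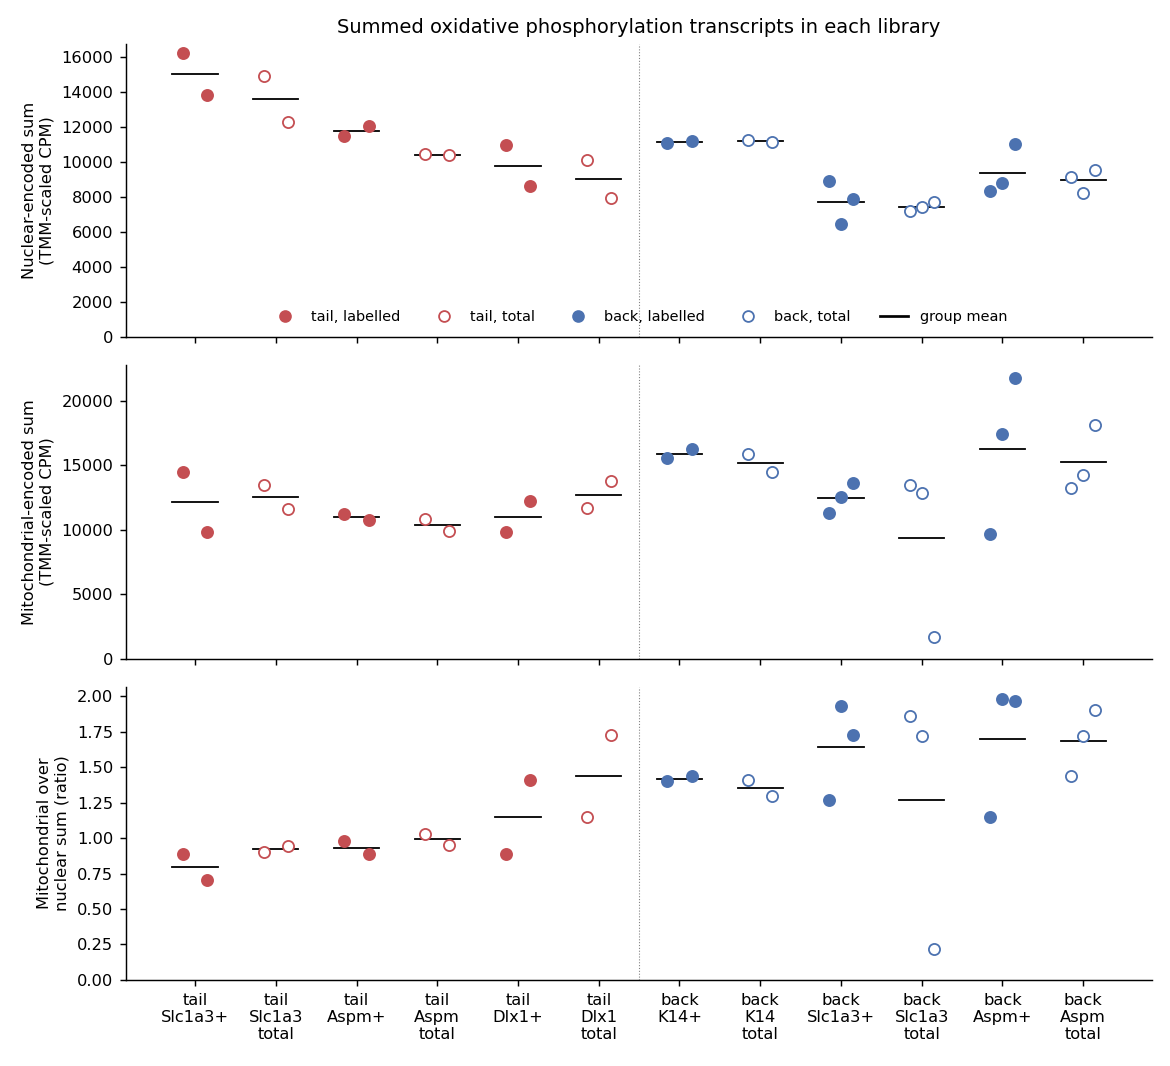
Summed TMM-scaled CPM of the 86 nuclear members (top), of the 13 mitochondrial-encoded members (middle) and their ratio (bottom) in each library, by group, with tail groups in red left of back groups in blue, filled points for labelled cells, open points for totals and a line at each group mean. The tail Slc1a3 line has the highest nuclear sums, up to 16280 CPM, and back Slc1a3 total replicate 4 has a mitochondrial-encoded sum of 1664 CPM.

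Tail and back epidermis were compared in total IFE, in Slc1a3+ cells and in Aspm+ cells, with total IFE taken as the equally weighted mean of the Slc1a3 and Aspm lines' totals. In total IFE, 56 of the 80 nuclear members tested were higher in tail and 3 were lower at an adjusted p under 0.05 (edgeR quasi-likelihood test, Benjamini-Hochberg over 17493 genes). Over all genes tested 22.5% were higher and 23.7% lower. The median log2 difference, tail minus back, was 0.49 for the nuclear members and -0.03 for all genes. These calls rest on the mean of both lines, and the gap in nuclear sums was wider in the Slc1a3 totals. The difference between sites in the Slc1a3 minus Aspm totals had 0 members past the test and 52 at an unadjusted p under 0.05. In Slc1a3+ cells 70 nuclear members were higher and 3 lower, with a median of 0.98, where 19.0% of all genes were higher and 21.6% lower and the median of all genes was -0.09. In Aspm+ cells 18 were higher and 1 lower, with a median of 0.28, where 12.7% of all genes were higher and 14.5% lower and the median of all genes was -0.05. Without the library of few genes the nuclear members higher in tail were 59 in total IFE, 71 in Slc1a3+ cells and 29 in Aspm+ cells. The Aspm+ count depended on single libraries, with 3 without tail Aspm+ replicate 2, 9 without tail Aspm+ replicate 1, 9 without back Aspm+ replicate 1 and 10 without back Aspm+ replicate 2.

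All 5 complexes took part in total IFE. Members were placed in complexes by gene symbol alone, so Ndufa4, Cox7a2l and Atp5s were counted in complexes I, IV and V by name. The nuclear members higher in tail were 27 of 37 in complex I, 4 of 4 in complex II, 7 of 9 in complex III, 8 of 13 in complex IV and 10 of 17 in complex V. Within complex I, 5 of the 7 nuclear core subunits, which carry the electron path, were higher. Of the 30 other members, taken as accessory subunits, 22 were higher. In Slc1a3+ cells the counts were 33 of 37, 4 of 4, 9 of 9, 9 of 13 and 15 of 17 for complexes I to V. In Aspm+ cells they were 7, 2, 5, 1 and 3.

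**Figure D2:**
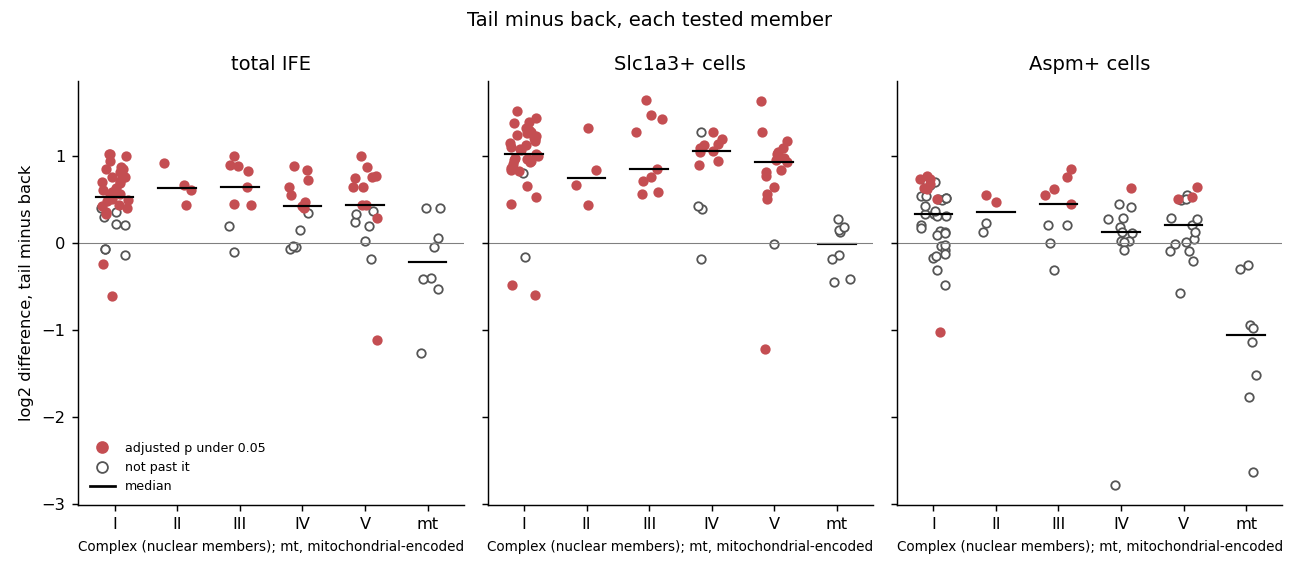
Log2 difference, tail minus back, of each tested member in total IFE, Slc1a3+ cells and Aspm+ cells, by complex for nuclear members and together for the 8 mitochondrial-encoded ones (mt), with filled points at an adjusted p under 0.05 and a line at each median. Most nuclear members of every complex lie above 0 in total IFE and Slc1a3+ cells, and 0 mitochondrial-encoded members pass.

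Complex I, the NADH dehydrogenase, had its lowest p-values between sites in Ndufa10 and Ndufv3, which are accessory subunits, and in Ndufv1, Ndufs3 and Ndufv2, which are core subunits. Ndufv1 binds NADH and starts the electron path. Its level was 222, 208, 292 and 252 CPM in the tail Aspm and Slc1a3 totals, against 123, 131, 151, 134, 135 and 155 CPM in the back totals. The groups did not overlap, and the log2 difference was 0.81 (SE 0.111, adjusted p = 2.73e-06). Ndufa10 averaged 198 ± 19.7 CPM in tail totals and 109 ± 15.5 CPM in back totals (SD, n = 4 and 6), a log2 difference of 0.87 (SE 0.105, adjusted p = 4.36e-07). In Slc1a3+ cells Ndufa10 had 255.5 and 224 CPM in tail, against 121, 91.0 and 87.7 CPM in back (adjusted p = 4.67e-07). In Aspm+ cells it had 209.9 and 192 CPM in tail, against 123, 106 and 126 CPM in back, a difference of 0.77. Ndufa10 was thus higher in tail in all 3 comparisons, as were Ndufv1, Ndufv3, Ndufs3 and Ndufb10 among the complex I members named by the rule. Ndufv2 was higher by 0.94 in total IFE and 1.24 in Slc1a3+ cells, and in Aspm+ cells its difference of 0.52 had an adjusted p of 0.0557.

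Complex II, the succinate dehydrogenase that also belongs to the tricarboxylic acid cycle, has 4 subunits and no mitochondrial-encoded one. Sdha, the flavoprotein that oxidises succinate, was one of the few members whose levels did not overlap between sites over all 28 libraries. It ran from 209 to 244 CPM in the 12 tail libraries and from 152 to 202 CPM in the 16 back libraries. Of all genes tested 11.7% were separated in this way, and among the 88 members tested Sdha and Ndufb2 were. The log2 difference of Sdha was 0.43 in total IFE (SE 0.0791, adjusted p = 0.000102) and 0.43 in Slc1a3+ cells, and 0.23 in Aspm+ cells with an adjusted p of 0.134. Sdhb, the iron-sulfur subunit, changed more, with 168 ± 37.6 CPM in tail totals and 87.6 ± 11.4 CPM in back totals, a log2 difference of 0.92 (SE 0.123, adjusted p = 1.73e-06). The membrane anchors Sdhc and Sdhd were higher in tail by 0.66 and 0.61 in total IFE and by 0.84 and 0.66 in Slc1a3+ cells. In Aspm+ cells Sdhb and Sdhc passed at 0.55 and 0.47, and Sdhd, at 0.13, did not.

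Complex III, which oxidises ubiquinol, passed the test for all 9 of its nuclear subunits in Slc1a3+ cells. Its core protein Uqcrc1 had 413 ± 6.97 CPM in tail and 268 ± 42.3 CPM in back Aspm+ cells (SD, n = 2 and 3), a log2 difference of 0.62 (adjusted p = 0.0092). In Slc1a3+ cells Uqcrc1 had 564 and 493 CPM in tail, against 239.6, 209.5 and 204 CPM in back, a difference of 1.28. Of the small supernumerary subunits, Uqcrq had 246 and 169 CPM in tail and 68.9, 55.8 and 75.0 CPM in back Slc1a3+ cells, a difference of 1.64 (SE 0.232, adjusted p = 5.73e-06). This was the largest of the complex III differences in that comparison. Uqcr10 and Uqcr11 were higher by 1.0 and 0.83 in total IFE, and Cyc1, cytochrome c1, by 0.64. Uqcrc1, Uqcrq, Uqcr10, Uqcr11 and Cyc1 were higher in tail in all 3 comparisons. Uqcrh and Uqcrb did not pass in total IFE, with differences of -0.10 and 0.19.

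Complex IV, cytochrome c oxidase, had 1 member higher in tail in all 3 comparisons, the matrix-side structural subunit Cox5b. Cox5b averaged 152 ± 32.7 CPM in tail totals and 82.4 ± 22.5 CPM in back totals, a log2 difference of 0.88 (SE 0.148, adjusted p = 3.58e-05). Cox5a was higher by 0.84 in total IFE and 1.14 in Slc1a3+ cells. Cox4i1, which is bound early in assembly, had 619 ± 195.0 CPM in tail and 389 ± 69.7 CPM in back totals. The Cox4i1 groups overlapped, and the difference of 0.64 passed (adjusted p = 0.00121). In the Aspm totals alone Cox4i1 had 454 and 482 CPM in tail, against 458, 374 and 477 CPM in back. Cox6b1, Cox7a2 and Cox7b passed in total IFE at 0.42, 0.47 and 0.55 and in Slc1a3+ cells at 1.09, 1.13 and 1.06, and did not pass in Aspm+ cells. Cox6a1 and Cox7c passed in none of the 3 comparisons, with 196 ± 52.5 CPM in tail and 199.8 ± 53.8 CPM in back totals for Cox6a1.

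Complex IV has subunits with tissue-restricted forms, such as the muscle-type Cox6a2, Cox7a1 and Cox8b, the lung-type Cox4i2 and the testis-type Cox6b2, Cox7b2 and Cox8c. Cox7b2 and Cox8c had 0 counts in all 28 libraries, and Cox4i2, Cox6a2 and Cox8b reached at most 0.424 CPM. Cox6b2 ran from 0.116 to 2.42 CPM in tail and from 0 to 3.37 CPM in back libraries, and Cox7a1 from 0.0488 to 0.772 CPM in tail and from 0 to 0.712 CPM in back libraries. Per kb of transcript the means were 223 CPM for Cox6b1 and 2.33 CPM for Cox6b2, and 192 CPM for Cox7a2 and 0.512 CPM for Cox7a1. Cox6b1 ran from 86.6 to 245 CPM in tail and from 73.6 to 172 CPM in back libraries, and Cox7a2 from 84.8 to 235 CPM in tail and from 77.9 to 174 CPM in back libraries. Both sites therefore held the widely expressed forms of these subunits. In Aspm+ cells the difference of Cox7a1, -2.79 on the log2 scale with an adjusted p of 0.169, rested on these low levels.

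Complex V, the ATP synthase, makes ATP at its Atp5a1 (alpha) and Atp5b (beta) subunits. Atp5b averaged 1513 ± 158 CPM in tail totals and 969 ± 94.2 CPM in back totals, a log2 difference of 0.64 (SE 0.0925, adjusted p = 4.9e-06). In Slc1a3+ cells Atp5b had 1758 and 1672 CPM in tail, against 931, 862 and 879 CPM in back. In Aspm+ cells it had 1516 and 1505 CPM in tail, against 997, 1008 and 1189 CPM in back, and the groups were apart in each comparison. Of the complex V members higher in tail Atp5mpl, a small membrane subunit, had the largest differences, 1.0 in total IFE, 1.63 in Slc1a3+ cells and 0.64 in Aspm+ cells. Atp5a1, Atp5b and Atp5mpl were the complex V members higher in tail in all 3. The genes Atp5g1, Atp5g2 and Atp5g3 encode the same mature subunit c of the rotor with different import sequences. Per kb of transcript, Atp5g3 had a mean level of 364 CPM, Atp5g2 40.4 CPM and Atp5g1 14.7 CPM over the 28 libraries. The lengths used were those of the longest coding transcripts, 723 bases for Atp5g3, 753 for Atp5g2 and 4715 for Atp5g1. Not divided by length, the means were 263, 30.4 and 69.5 CPM, so the order of Atp5g1 and Atp5g2 depended on the length used. All 3 were higher in tail, by 0.87 for Atp5g1, 0.77 for Atp5g2 and 0.75 for Atp5g3 in total IFE.

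In all, 18 nuclear members were higher in tail in each of the 3 comparisons, and 10 were higher in none. The 18 were the same members as those higher in Aspm+ cells, a count that depended on single libraries. The shares of all genes higher in all 3 or in none were not computed. Those higher in none were Ndufa13, Ndufab1, Ndufb2, Ndufs1, Cox6a1, Cox6b2, Cox7a1, Cox7c, Atp5l and Atp5s. The total, Slc1a3+ and Aspm+ comparisons use different libraries of the same lines. Labelled and total libraries were taken as pairs by replicate number, which the labels do not state. The 3 comparisons therefore cannot be taken as independent. The members lower in tail were Ndufb2, Ndufs1 and Atp5l. Ndufb2, an accessory subunit of complex I, had 8.08 to 14.9 CPM in the 12 tail libraries and 15.4 to 24.1 CPM in the 16 back libraries, with no overlap. Its log2 difference was -0.61 in total IFE (SE 0.153, adjusted p = 0.0023), -0.60 in Slc1a3+ cells and -1.03 in Aspm+ cells. Ndufs1, the largest core subunit of complex I, had 74.1 ± 6.94 CPM in tail and 87.8 ± 14.7 CPM in back totals, a difference of -0.24 (adjusted p = 0.0401), and -0.48 in Slc1a3+ cells. Atp5l, a membrane subunit of complex V, had 4.64 ± 0.593 CPM in tail and 10.1 ± 2.69 CPM in back totals, a difference of -1.12 (adjusted p = 0.000344).

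These 3 exceptions have values of their own that bear on counting. Atp5l shared 84.8% of the 50-base windows of its transcript with other annotated genes, the most of any tested nuclear member. The libraries were not strand-specific and the counting program is not given in the sources used here. Ndufb2 overlaps Braf by 146 bases and Gm16272 by 211 bases on the opposite strand. On the same strand its gene span overlaps Gm42420, a protein-coding identifier with 0 counts, by 4022 bases. Ndufs1 lies opposite the long noncoding RNA Ino80dos. The part of shared or overlapping sequence in these differences was not tested. Other members with a gene on the opposite strand include Atp5d with Cbarp, Cox6c with Vps13b, Atp5j with Gabpa, Atp5f1 with Wdr77 and Ndufb5 with Mrpl47. Members with a protein-coding gene on the same strand include Ndufb8 with Gm20538, Ndufb9 with Gm49356, Cox4i1 with Gm20388 and Ndufa13 with Yjefn3.

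The mitochondrial-encoded members showed no site difference past the test. In each of total IFE, Slc1a3+ cells and Aspm+ cells, 0 of 8 passed in edgeR, with 0, 0 and 3 at an unadjusted p under 0.05. Their median log2 differences were -0.22, -0.01 and -1.06, where those of the nuclear members were 0.49, 0.98 and 0.28. mt-Co1, the catalytic subunit of complex IV, ran from 4418 to 6553 CPM in tail libraries (median 5655) and from 847 to 8086 CPM in back libraries (median 6447), and its lowest back value without the library of few genes was 4713 CPM. The log2 difference of mt-Co1 was 0.06 in total IFE (SE 0.291), 0.12 in Slc1a3+ cells and -0.25 in Aspm+ cells. mt-Cytb, the membrane core of complex III, had 1957 ± 641 CPM in tail totals and 2534 ± 1165 CPM in back totals, a difference of -0.40 (SE 0.421, adjusted p = 0.462). With an SE of this size a difference as large as the nuclear median of 0.49 was not detectable for mt-Cytb.

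The complex I members of the mitochondrial DNA form the membrane arm that pumps protons. mt-Nd1 averaged 2047 ± 332 CPM in tail totals and 2185 ± 1045 CPM in back totals, and mt-Nd2 565 ± 179 CPM in tail and 770 ± 514 CPM in back totals. mt-Nd5 had 764 ± 237 CPM in tail and 594 ± 320 CPM in back totals. mt-Nd6, the one member read from the other strand of the mitochondrial DNA, had 192 ± 65.2 CPM in tail and 150 ± 82.3 CPM in back totals. Their differences were -0.05, -0.41, 0.40 and 0.40, all within the spread between libraries. The libraries were not strand-specific, so counts at mt-Nd6 may include transcripts read from the opposite strand. That part was not tested. mt-Nd4 had a difference of -0.53 (adjusted p = 0.397), and mt-Nd3, with 0.0965 ± 0.0746 CPM in tail and 0.237 ± 0.224 CPM in back totals, one of -1.27 (adjusted p = 0.351). In Aspm+ cells mt-Nd4 had 361 and 334 CPM in tail, against 355, 1168 and 1461 CPM in back, and the log2 difference of -1.52 had an adjusted p of 0.125. In the same cells mt-Nd2 had 377 and 382 CPM in tail, against 324, 1399 and 2159 CPM in back, with -1.77 and an adjusted p of 0.09. Replicate 1 of back Aspm+ cells lay with the tail libraries for both genes and the other replicates far above.

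Leaving out the library of few genes changed 3 of these calls and gave smaller SEs for mt-Nd4, mt-Cytb and mt-Co1. Without it mt-Nd4 was lower in tail total IFE, with a log2 difference of -0.79 (SE 0.284, adjusted p = 0.0258), and mt-Cytb had -0.65 (adjusted p = 0.0505). In Aspm+ cells mt-Nd4 passed at -1.52 (adjusted p = 0.00612) and mt-Nd2 at -1.77 (adjusted p = 0.026), since that library no longer enters the shared estimate of the spread. In Slc1a3+ cells 0 mitochondrial-encoded members passed either way. No mitochondrial-encoded member passed as higher in tail in these 3 comparisons, with or without it.

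**Figure D3:**
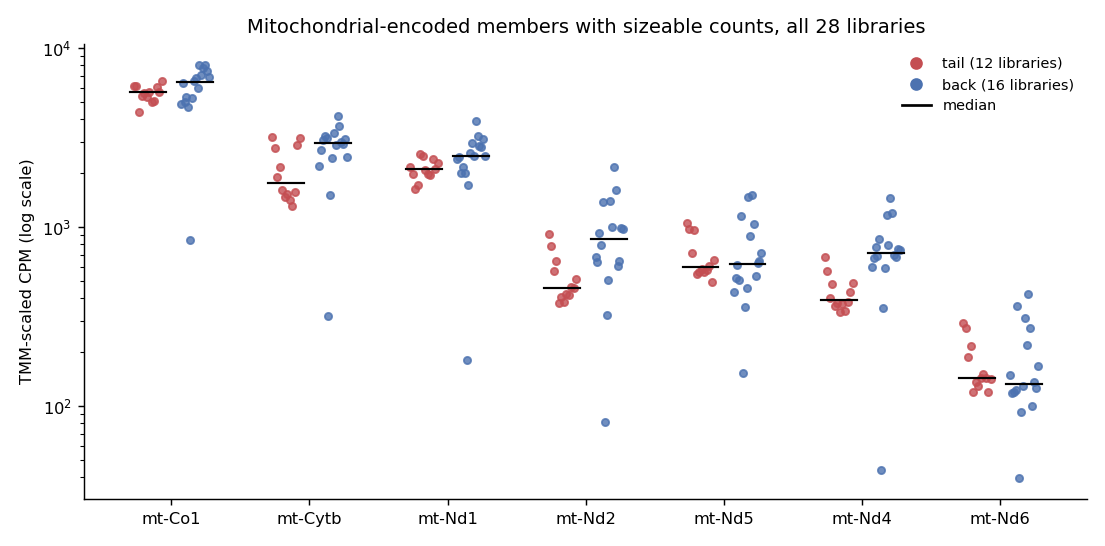
TMM-scaled CPM (log scale) of the 7 mitochondrial-encoded members with sizeable counts in the 12 tail libraries (red) and the 16 back libraries (blue), with a line at each median. The sites overlap for every gene, and the lowest blue points belong to back Slc1a3 total replicate 4, where mt-Nd4 is 43.7 CPM.

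Counts of the mitochondrial-encoded members were very uneven, and the near-empty ones share nearly all their sequence with nuclear copies. Per kb of transcript the means over 28 libraries were 3799 CPM for mt-Co1, 2417 CPM for mt-Nd1, 2157 CPM for mt-Cytb, 725 CPM for mt-Nd2, 448 CPM for mt-Nd4, 389.8 CPM for mt-Nd5 and 339 CPM for mt-Nd6. The other members were at or near 0. mt-Nd3 had 130 counts in all libraries together, mt-Co3 6, mt-Co2 4 and mt-Atp6 3, and mt-Nd4l and mt-Atp8 had 0. Of the 50-base windows of their transcripts, mt-Co2 shared 100.0%, mt-Co3 99.9%, mt-Atp6 99.5%, mt-Nd4l 98.8% and mt-Nd3 98.0% with another annotated gene of the reference, chiefly unprocessed pseudogenes of mitochondrial origin on chromosomes 1 and 2. mt-Atp8 shared 0% and had no count, but a nuclear copy outside the annotated transcripts would not be seen by this measure. mt-Co1 and mt-Nd4 shared 51.1% and 62.2% and were still counted. The pseudogene copies were low too, with 96 counts for Gm28661, the copy of mt-Co2, and 85 for Gm28437, the copy of mt-Co3. Reads that match 2 places equally well are dropped by many counting programs. Whether that was so here is not given in the sources used here, so the levels of these members cannot be read as low expression.

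**Figure D4:**
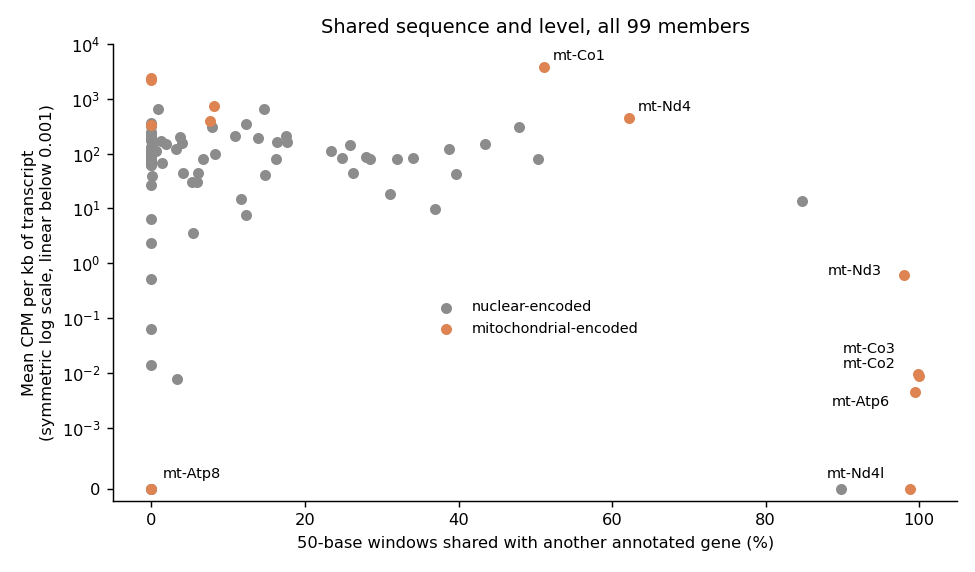
Mean CPM per kb of transcript over 28 libraries (symmetric log scale, linear below 0.001) against the percentage of 50-base windows shared with another annotated gene, for all 99 members, nuclear in grey and mitochondrial-encoded in orange. The 5 mitochondrial-encoded members above 95% shared lie below 1 CPM per kb, whereas mt-Co1 at 51.1% and mt-Nd4 at 62.2% lie above 400.

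A stretch of 120 bases from 2 members and their copies shows the contrast, since 1 pair is identical over its aligned bases and the other is not. The coding sequence of mt-Co2 aligned to Gm28661 over 681 bases with 0 differences. That of mt-Nd2 aligned to its partial copy Gm13339 over 510 bases with 17 differences, 96.7% identity. Capitals mark the bases that differ within a pair, and the sequences come from the GENCODE M21 transcripts on GRCm38.
mt-Co2 (chrM:7293-7412, plus strand): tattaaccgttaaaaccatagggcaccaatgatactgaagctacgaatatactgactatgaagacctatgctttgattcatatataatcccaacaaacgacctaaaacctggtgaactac
Gm28661 (chr1:24615166-24615285, minus strand): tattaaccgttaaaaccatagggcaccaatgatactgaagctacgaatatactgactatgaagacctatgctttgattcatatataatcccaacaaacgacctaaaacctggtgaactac
mt-Nd2 (chrM:4442-4561, plus strand): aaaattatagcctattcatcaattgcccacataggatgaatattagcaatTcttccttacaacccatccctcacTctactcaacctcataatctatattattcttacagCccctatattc
Gm13339 (chr2:22590414-22590533, minus strand): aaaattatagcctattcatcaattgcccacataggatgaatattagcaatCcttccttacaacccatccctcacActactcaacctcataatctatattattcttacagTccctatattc
In the printed stretch mt-Nd2 and Gm13339 differ at 3 bases. Of its 50-base windows mt-Nd2 still shared 8.19% with Gm13339, so some short reads could match both. mt-Nd2 had 459529 counts in all and Gm13339 16. Among nuclear members 11 of 86 shared at least 30% of their windows with another gene and 39 shared none, and the named Atp5o, Ndufs3, Atp5f1 and Cox5a shared 50.3%, 39.7%, 38.7% and 32.0%, so their levels are less certain.

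Genes around the respiratory chain were read from lists, against 22.5% of all genes higher and 23.7% lower in tail total IFE. In total IFE the assembly factors of complex I had 5 higher and 2 lower in tail of 17 tested, and those of complexes II to V 8 higher and 3 lower of 30. Nubpl, which delivers iron-sulfur clusters to complex I, had 12.8 ± 1.01 CPM in tail and 4.76 ± 2.51 CPM in back totals, a log2 difference of 1.38. Cox17, a copper chaperone of complex IV, was lower, at 5.11 ± 0.511 CPM in tail and 12 ± 1.96 CPM in back totals. Of 19 genes for mitochondrial transcription and RNA stability 3 were higher and 2 lower, and of 11 for mitochondrial DNA replication 3 were higher and 3 lower. Top1mt, the mitochondrial topoisomerase, was higher by 0.73, while Polg, the mitochondrial DNA polymerase, was lower, with 73.3 ± 9.75 CPM in tail and 122 ± 10.7 CPM in back totals. The counts of both lists lay near or below the shares of all genes.

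Regulators of mitochondrial biogenesis had 3 higher and 4 lower of 13, shares near those of all genes. Ppargc1a, a coactivator of nuclear respiratory genes, had 0.0901 ± 0.13 CPM in tail totals and 3.99 ± 2.4 CPM in back totals, a log2 difference of -5.40 (adjusted p = 8.32e-06). Ppara, a receptor that controls fatty acid oxidation, had 5.65 ± 2.21 CPM in tail and 31.3 ± 14.4 CPM in back totals, a difference of -2.45. Nrf1, which encodes the factor that binds the motif given above, was higher by 0.32, and Yy1 was lower, with a difference of -0.29. Of 18 tricarboxylic acid cycle genes 7 were higher, led by Idh3a, a subunit of isocitrate dehydrogenase, at 173 ± 5.96 CPM in tail and 97.4 ± 15.2 CPM in back totals. Pdha1 of pyruvate dehydrogenase was the 1 lower gene, with a difference of -0.52. Among carriers and exchangers 12 of 20 were higher, including the adenine nucleotide carrier Slc25a5 by 0.83, and 1 was lower, the uncoupling protein gene Ucp2, with 177 ± 25.6 CPM in tail and 626 ± 211 CPM in back totals, a difference of -1.80.

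Glycolysis had 13 of 17 genes higher and 1 lower in tail total IFE, where 22.5% of all genes were higher. Gapdh had 405 ± 55.8 CPM in tail and 148 ± 14.6 CPM in back totals, a log2 difference of 1.45 (adjusted p = 1.54e-10). Pkm, Eno1 and Ldha, which act at the end of glycolysis, were higher by 1.30, 1.07 and 1.05, and the phosphofructokinase gene Pfkp was lower, with a difference of -0.50. In Slc1a3+ cells 11 of the 17 genes were higher in tail, and in Aspm+ cells 10 were. The glycolysis sum was 3604 to 7352 CPM in tail libraries and 2883 to 4081 CPM in back libraries. Genes of glycolysis and of the nuclear respiratory chain were therefore both higher in tail.

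Some other measures were also higher in tail in total IFE and Slc1a3+ cells. Cytosolic ribosomal protein genes summed to 53783 to 130396 CPM in tail and 43041 to 94006 CPM in back libraries, with 58, 75 and 2 of 80 higher in the total, Slc1a3+ and Aspm+ comparisons and medians of 0.49, 1.05 and 0.13. Mitochondrial ribosomal protein genes had 46, 56 and 14 of 76 higher. Of all genes 22.5%, 19.0% and 12.7% were higher in the 3 comparisons. The 2 of 80 cytosolic ribosomal protein genes higher in Aspm+ cells lay below that share. Protein-coding genes with up to 2000 bases of exon, a group chosen after seeing the data, had medians of 0.35, 0.63 and 0.21, and longer ones -0.06, -0.16 and -0.06. Nuclear members over 2000 bases had medians of 0.49, 0.94 and 0.33, and those up to 2000 bases 0.50, 1.07 and 0.27. The nuclear members of both length classes thus had similar medians, but exon length here counts all annotated exons of a gene. Members over 2000 bases include ones with shorter transcripts, such as Cox6c, whose longest coding transcript has 738 bases, and Atp5b, with 1916. Medians by transcript length were not computed, so the part of transcript length was not tested.

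Markers of other cells also differed between sites. Basal keratinocyte markers summed to 66638 to 119315 CPM in tail and 55478 to 87017 CPM in back libraries, follicle bulge and germ markers to 317 to 1782 CPM in tail and 126 to 718 CPM in back, and sebaceous gland markers to 645 to 1103 CPM in tail and 345 to 754 CPM in back. The basal sum was carried by Krt5 and Krt14, and its other markers did not all lie the same way. Krt15 ran from 2245 to 4724 CPM in tail and from 12610 to 19063 CPM in back libraries, and the medians of Trp63 were 761 CPM in tail and 1113 CPM in back, those of Itga6 783 CPM in tail and 1104 CPM in back, and those of Itgb4 1166 CPM in tail and 899 CPM in back. Of 8 bulge and germ markers 7 were higher in tail total IFE, where 22.5% of all genes were, as were 5 of 6 sebaceous markers, 5 of 6 melanocyte markers and 2 of 5 tested fibroblast markers. Of 6 Langerhans cell markers 4 were lower, with sums of 25.7 to 83.9 CPM in tail and 75.5 to 257 CPM in back. The adipocyte sum was 2.00 to 19.2 CPM in tail and 0 to 0.744 CPM in back, nearly all of it Cidea, at 1.41 to 18.7 CPM in tail and 0 to 0.628 CPM in back. Of the defining adipocyte markers, Ucp1 was at 0 in all 28 libraries, Adipoq was at 0 in every tail library, and Plin1 and Cidec reached at most 0.349 and 0.127 CPM in tail. Skeletal muscle markers, from a tissue rich in these complexes, summed to 4.75 to 17.1 CPM in tail and 3.57 to 10.9 CPM in back. The part of other cells in the site difference was not tested.

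Labelled cells were set against the total IFE of the same line and site to ask whether a lineage differs from the epidermis around it. No member passed in any of the 6 comparisons in edgeR, DESeq2 or limma-voom. The members at an unadjusted p under 0.05 in edgeR were 0 for tail Slc1a3+, 1 for tail Aspm+, 0 for tail Dlx1+, 6 for back Slc1a3+, 0 for back Aspm+ and 0 for back K14+ cells. Few genes of any kind passed: 0.514% in either direction for tail Slc1a3+, 0.00572% for tail Aspm+, 0.0% for tail Dlx1+, 0.109% for back Slc1a3+, 0.0% for back Aspm+ and 0.00572% for back K14+ cells. The nuclear medians, labelled minus total, were 0.19, 0.18 and 0.11 for tail Slc1a3+, Aspm+ and Dlx1+ cells and 0.06, 0.07 and 0.00 for back Slc1a3+, Aspm+ and K14+ cells. In the 6 tail pairs with the same line and number the log2 ratio of labelled to total nuclear sums was 0.12 to 0.21. In the 8 back pairs it was -0.20 to 0.31. The site difference of the labelled effect, tail minus back, also had 0 members past the test in the Slc1a3 line, where 0.0915% of all genes passed, and in the Aspm line, where 0.0% did. At an unadjusted p under 0.05 both had 0 members.

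Among labelled lineages in tail skin, Slc1a3+ cells held more nuclear subunit transcripts than Dlx1+ cells. Of 80 nuclear members 33 were higher in Slc1a3+ cells and 0 lower, where 2.31% of all genes were higher and 3.16% lower. They came from all 5 complexes, with 15 from complex I, 1 from complex II, 5 from complex III, 7 from complex IV and 5 from complex V. Ndufa3, an accessory subunit of complex I, had 85.5 and 73.6 CPM in Slc1a3+ cells, against 46.0 and 37.5 CPM in Dlx1+ cells, a log2 difference of 0.93 (SE 0.196, adjusted p = 0.00967). Uqcr11 had 199 and 165 CPM in Slc1a3+ cells, against 100.1 and 75.4 CPM in Dlx1+ cells, a difference of 1.05 (SE 0.222, adjusted p = 0.00967). Uqcrq differed by 1.19, Uqcrh, the hinge protein of complex III, by 1.10, Cox7a2 by 1.0 and Ndufv3 by 0.68. The groups were apart for each of these genes, and Aspm+ cells lay between them for Ndufa3, at 46.6 and 53.7 CPM, and for Uqcr11, at 111 and 115 CPM.

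This comparison rests on 2 libraries a group and on the lower of the Dlx1+ ones. Without tail Dlx1+ replicate 2, which had the lowest nuclear sum of the labelled tail libraries, 0 members passed, and 0 passed without tail Slc1a3+ replicate 1. Leaving out tail Slc1a3+ replicate 2 gave 17 and leaving out tail Dlx1+ replicate 1 gave 22. With library totals in place of TMM 11 passed, and without the library of few genes 53 did. The totals of these lines differed in the same direction. Tail Slc1a3 total IFE had 7 nuclear members higher than Dlx1 total IFE, namely Ndufa3, Uqcr11, Uqcrq, Cox4i1, Cox6b1, Atp5d and Atp5j2, where 0.978% of all genes were higher. Atp5d, the delta subunit of the ATP synthase, had 248 and 196 CPM in the Slc1a3 totals and 126 and 107 CPM in the Dlx1 totals, a difference of 0.93 (adjusted p = 0.0272). For these totals 0 passed without Slc1a3 total replicate 1 or without Dlx1 total replicate 2, 2 without Dlx1 total replicate 1, and 28 without the library of few genes. Ribosomal protein genes, with 61 of 80 higher in Slc1a3+ than Dlx1+ cells, moved in the same direction.

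The other lineages did not differ past the test. In tail, Slc1a3+ minus Aspm+ cells had 0 members (0.492% of all genes in either direction), with 21 at an unadjusted p under 0.05 and a nuclear median of 0.39. Aspm+ minus Dlx1+ cells had 0 (0.0915% of all genes), with 5 unadjusted and a median of 0.29. In back, Slc1a3+ minus Aspm+ cells had 0 (0.16% of all genes), with 18 unadjusted, 1 in DESeq2 and a nuclear median of -0.26. The lowest adjusted p among members was 0.157, 0.797 and 0.165 for these 3 comparisons. The difference between sites in this lineage contrast, a test added after seeing the data, had 0 members past the adjusted threshold (0.137% of all genes), 49 at an unadjusted p under 0.05, a lowest adjusted p of 0.102 and a nuclear median of 0.67. DESeq2 called 4 members there.

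**Figure D5:**
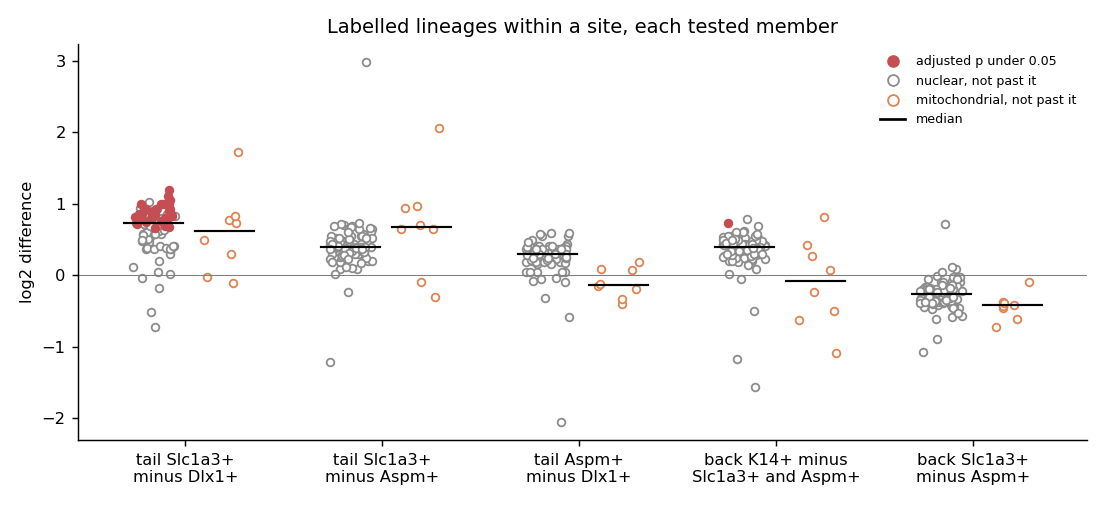
Log2 differences between labelled lineages within a site for each tested nuclear member (grey) and mitochondrial-encoded member (orange), with red points at an adjusted p under 0.05 and a line at each median. Red points occur in tail Slc1a3+ minus Dlx1+ cells, 33 in all, and once in back K14+ minus Slc1a3+ and Aspm+ cells.

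K14+ cells of back skin, where keratin 14 marks basal cells in general, were set against the mean of back Slc1a3+ and Aspm+ cells. Ndufa1, a small membrane-arm subunit of complex I encoded on the X chromosome, was the 1 member that passed (0.246% of all genes were higher). It had 80.1 and 74.6 CPM in K14+ cells, against 36.1 to 57.2 CPM in the 6 others, a log2 difference of 0.73 (adjusted p = 0.0473). This call was lost when only the groups compared were fitted, and with library totals, median-ratio size factors or scaling without the mitochondrial-encoded genes. It was also lost on leaving out K14+ replicate 1 or 4, Aspm+ replicate 1 or 2 or Slc1a3+ replicate 2 or 4, while 6 passed without Aspm+ replicate 4 or without the library of few genes. In the totals 8 members were higher in the K14 line (1.35% of all genes), namely Ndufa1, Ndufa7, Uqcr11, Cox5b, Cox6c, Cox7a2, Atp5c1 and Atp5j2. Ndufa1 had 76.6 and 75.0 CPM in the K14 totals, against 25.9 to 49.9 CPM in the 6 other back totals, a difference of 0.92 (adjusted p = 0.0103). Without the library of few genes 26 members passed, and 0 when only the groups compared were fitted or when K14 total replicate 1 or 4 was left out. The other totals left out gave 5, 1 and 2 for Aspm replicates 1, 2 and 4, and 4 and 16 for Slc1a3 replicates 1 and 2.

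The remaining totals had no member past the test in edgeR. In back, Slc1a3 minus Aspm totals had 0 members (0.0114% of all genes in either direction), with 30 at an unadjusted p under 0.05 and 2 in DESeq2. In tail, Slc1a3 minus Aspm totals had 0 (0.00572% of all genes), with 20 unadjusted, and Aspm minus Dlx1 totals had 0 (0.0343% of all genes), with 3 unadjusted. The difference between sites in the Slc1a3 minus Aspm totals had 0 members (0.0% of all genes), with 52 unadjusted, a lowest adjusted p of 0.0945, a nuclear median of 0.69 and 19 members in DESeq2. Line and lineage cannot be told apart from the libraries of labelled cells alone, since each lineage comes from its own line.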

How the data were processed

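The deposited files hold 1 raw read count per gene for each of 28 libraries. Per the submitters' processing notes, Trim Galore 0.6.0, cutadapt, FastQC, STAR 2.7.0e and DESeq2 1.26.0 were used with GRCm38 (mm10). The counter, annotation, strand setting and treatment of multi-mapping reads are not given in the sources used here. Per the labels' protocols, RNA was taken up in TRIzol, selected by poly(A) and made into non-directional libraries from low input, so mitochondrial transcripts were measured as far as they are adenylated.

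All 55536 identifiers matched GENCODE M21, which gave symbols, exon lengths and transcripts. Counts were scaled by TMM and kept by filterByExpr (minimum count 10), which left 17493 genes. All libraries entered 1 fit of edgeR's quasi-likelihood test with a coefficient for each group (edgeR 4.0.16, robust, 16 residual degrees of freedom, biological coefficient of variation 0.28), with p-values adjusted by Benjamini-Hochberg over all genes tested and a threshold of 0.05. Other software was DESeq2 1.42.0 and limma 3.58.1 in R 4.3.3, and pandas 2.3.3, numpy 2.4.6 and matplotlib 3.10.9 in Python 3.11.15, and the model was tested on simulated data. Fold changes are log2 differences from that model, and levels are TMM-scaled CPM.

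The members and lists were chosen with earlier results of these data known. Full values are given for mitochondrial-encoded members, for up to 6 members per complex with the lowest p among those passing between sites and up to 6 per other comparison, for tissue-restricted forms with their counterparts, and for up to 4 genes per other list. Nrf1, Yy1, Pfkp and Uqcrb, which the rule did not take, were named after their values were seen. The gene lists were written from general knowledge, and Fastkd4 and Prorp were not matched.

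Shared sequence was the percentage of 50-base windows of the longest coding transcript found in transcripts of other genes. Labelled and total libraries of 1 line and number were taken as pairs. Over 10376 genes, departures from the group mean correlated within the 14 pairs (r = 0.18 to 0.689), against r = -0.262 to 0.379 in 56 pairs of the same number from other lines or sites. The labels do not state the pairing. In the back Slc1a3 line r was 0.18, 0.212 and 0.216, within the range of the 56 pairs. In groups of 2 libraries the departures mirror each other, so both pairs give the same r. Alternatives were other scalings, filters and tests, only the groups compared, a replicate block and leaving out single libraries. The NRF1 and YY1 motifs were searched on both strands as short cores, chosen after longer forms had been counted.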

Additional observations from a re-analysis of the deposited data

Results flagged for a closer look

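The change of the mitochondrial-encoded sum from total IFE to labelled cells had opposite signs in a pair of tail lines. In the tail Aspm line the log2 ratio of labelled to total sums was 0.05 and 0.12 in the 2 pairs, a mean of 0.08. In the tail Dlx1 line it was -0.25 and -0.17, a mean of -0.21. Both pairs of each line moved the same way, and the difference between the lines was not tested. In the tail Slc1a3, back Aspm and back K14 lines the pairs of a line moved both ways. In the back Slc1a3 line the ratios were -0.25 and -0.04, and 3.04 in the pair that holds the library of few genes.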

How the results depend on the processing

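The counts of members higher in tail kept within 1.5 times under every other scaling, filter and test in total IFE and Slc1a3+ cells. Leaving out 1 library gave 43 to 59 higher and 2 to 3 lower members in total IFE, 54 to 69 higher and 1 to 3 lower in Slc1a3+ cells, and 3 to 26 higher and 1 to 4 lower in Aspm+ cells. Without the library of few genes Aspm+ cells had 29 higher and 3 lower. Members lower in tail were 5 in total IFE and 6 in Aspm+ cells with no low-count filter, and 2 in Aspm+ cells by DESeq2. Tail Slc1a3+ minus Dlx1+ cells had 11 higher by library totals, 53 with only the groups compared, 53 without the library of few genes and 0 to 22 leaving out 1 library. Tail Slc1a3+ minus Aspm+ cells had 3 with no filter and 9 with only the groups compared. Back Slc1a3+ minus Aspm+ cells had 1 lower by DESeq2, 2 with no filter and 1 without the library of few genes. Back K14+ minus other labelled cells had 6 higher by DESeq2, 5 with no filter, 6 without the library of few genes and 0 by library totals, median-ratio factors, scaling without mitochondrial-encoded genes or only the groups compared, with 0 to 6 leaving out 1 library and 3 lower with no filter. Back K14 minus other totals had 28 by DESeq2, 24 with no filter, 26 without the library of few genes, 2 by library totals, 3 by median-ratio factors, 3 by scaling without mitochondrial-encoded genes, 0 with only the groups compared and 0 to 26 leaving out 1 library. Tail Slc1a3 minus Dlx1 totals had 30 by DESeq2, 17 by limma-voom, 14 with a minimum count of 50, 23 with no filter, 28 without the library of few genes, 1 by library totals and 0 to 9 leaving out 1 library. With no filter, back Slc1a3+ minus total had 4 higher, back Slc1a3 minus Aspm totals 15 lower (2 by DESeq2), tail Slc1a3 minus Aspm totals 4 higher, tail Aspm minus Dlx1 totals 1 lower and the Slc1a3 labelled effect between sites 3 lower. The site difference of the Slc1a3 minus Aspm contrast had 4 higher in labelled cells by DESeq2, 14 with no filter, 2 without the library of few genes and 0 to 2 leaving out 1 library, and in totals 19 by DESeq2 and 26 with no filter. The cause was not tested.

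Among named members, signs turned only where no call was made. In total IFE mt-Nd1 became 0.26, Cox6b2 0.28 and Cox7a1 0.26 by limma-voom, mt-Co1 -0.00 by library totals and -0.18 without the library of few genes, and Cox6a1 0.13 without that library. In Slc1a3+ cells library totals gave mt-Nd3 -0.05, mt-Nd6 -0.02 and mt-Co1 -0.09. Leaving out 1 library gave, in total IFE, Cox6a1 -0.18 to 0.13, Cox6b2 -0.32 to 0.32, Cox7a1 -0.39 to 0.33, mt-Co1 -0.18 to 0.28 and mt-Nd1 -0.31 to 0.18. In Slc1a3+ cells it gave Cox6b2 -2.86 to 0.68, Cox7a1 -0.16 to 1.94, mt-Co1 -0.16 to 0.32, mt-Cytb -0.59 to 0.18, mt-Nd1 -0.43 to 0.00, mt-Nd3 -0.30 to 0.86, mt-Nd5 -0.07 to 0.75 and mt-Nd6 -0.19 to 0.83. In Aspm+ cells it gave Cox6a1 -0.02 to 0.25, Cox6b2 -0.48 to 0.58 and Cox7a2 -0.13 to 0.26. Library totals moved the median of all genes in Slc1a3+ cells to -0.29, where that of the nuclear members was 0.78. With the replicate block 0 members passed in the 6 labelled comparisons and both labelled effects between sites, so it changed no call. Cox7a1, Cox6b2 and mt-Nd3 rested on few counts, and the cause of their low counts was not tested.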
